A study of Caenorhabditis elegans with 2 samples.

Results

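The genes described here are the *Caenorhabditis elegans* homeobox genes named ceh- and basic helix-loop-helix (bHLH) genes named hlh-, and the measurement is the binding signal of the nuclear hormone receptor NHR-77 at each of them. Members were the protein-coding genes of the Ensembl annotation whose symbol starts with ceh- or hlh- followed by a digit, which gave 88 of 19973 protein-coding genes, 63 ceh- and 25 hlh-. Membership rests on the symbol alone, so homeobox and bHLH genes with other names, such as unc-86 or hif-1, are not members. For each gene, the region with the highest signal was taken whose summit lay within 2000 bp of the annotated 5′ end or inside the gene.

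The study used chromatin immunoprecipitation sequencing (ChIP-seq) on whole L2 larvae, the second larval stage. There was 1 group with 2 biological replicates: strain OP353, genotype unc-119(tm4063) III with the transgene wgIs353, which carries NHR-77 tagged with eGFP, males and females pooled, age not given. Both replicates carried the unc-119 mutation and the transgene, and no untagged or untreated sample was analysed here. The promoter that drives the tagged protein is not given in the sources used here, and whole animals give no tissue of origin for a region.

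Nuclear hormone receptors bind short DNA sites through a zinc-finger domain and switch nearby genes on or off, and *C. elegans* has a much enlarged set of them, NHR-77 among them. Homeobox and bHLH genes encode transcription factors that set cell fates: homeodomain proteins contact AT-rich sites, and bHLH proteins pair up to contact the E-box. Many of these genes act in small sets of neurons, muscles, glia or gland cells, and whole larvae mix all tissues. Whether that affects the signal at the members was not tested.

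The pooled list held 30000 regions with signal values from 5.72 to 244.8 and a median of 7.98. A signal value is the peak caller's own score, of unstated scale, and ranks count from 1 at the highest value of a list. The authors' thresholded list was the 415 highest pooled regions, down to a signal of 27.07, and the next region had 27.02. The submitters label the pooled list as peaks and background, so a region outside the thresholded list may be background. Replicate 1 had its own list of 23256 regions, 23 of them mitochondrial, and replicate 2 one of 30000. Read depth is unknown from the files, and replicates are compared by rank because the score's scale may differ between lists.

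The sequences of leading regions are shown for their base composition and the E-boxes they hold. Each is from genome build WBcel235 (ce11), on the strand of the gene it is named for, with E-boxes (CANNTG, read alike on both strands) in capitals. The ceh-38 stretch is the part of its thresholded region before the annotated 5′ end (chrII:6951389-6951525, plus strand). The others are centred on the pooled summit: hlh-11 at chrIII:9619355-9619554 (plus strand), ceh-100 at chrII:12603786-12603985 (minus strand) and hlh-30 at chrIV:4028223-4028422 (minus strand). The ceh-60 stretch at chrX:6522783-6522906 (minus strand) was ended at the annotated 3′ UTR.
ceh-38: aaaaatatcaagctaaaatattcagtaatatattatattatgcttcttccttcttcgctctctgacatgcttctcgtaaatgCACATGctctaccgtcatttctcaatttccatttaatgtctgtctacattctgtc
hlh-11: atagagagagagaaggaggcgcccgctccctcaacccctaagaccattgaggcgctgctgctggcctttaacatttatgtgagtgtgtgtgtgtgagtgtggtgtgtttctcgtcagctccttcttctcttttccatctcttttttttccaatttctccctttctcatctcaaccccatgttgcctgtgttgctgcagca
ceh-100: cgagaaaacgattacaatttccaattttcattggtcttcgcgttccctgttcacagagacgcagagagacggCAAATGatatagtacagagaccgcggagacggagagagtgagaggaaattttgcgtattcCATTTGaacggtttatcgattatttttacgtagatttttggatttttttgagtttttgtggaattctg
hlh-30: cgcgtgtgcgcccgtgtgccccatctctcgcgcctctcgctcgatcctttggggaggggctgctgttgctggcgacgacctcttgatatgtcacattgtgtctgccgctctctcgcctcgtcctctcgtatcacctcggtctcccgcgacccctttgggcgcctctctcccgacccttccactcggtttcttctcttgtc
ceh-60: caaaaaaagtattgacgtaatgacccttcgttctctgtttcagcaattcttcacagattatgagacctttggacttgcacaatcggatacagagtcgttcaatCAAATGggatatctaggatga
In the full 200 bp on each summit, GC content was 44% at ceh-38, 49% at hlh-11, 39.5% at ceh-100, 63% at hlh-30 and 34.5% at ceh-60. The ceh-38 stretch ends before its summit, and the full window there held 2 E-boxes. Neither the hlh-11 nor the hlh-30 window held an E-box.

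High NHR-77 signal was found at few of the members, as at few of all protein-coding genes. A pooled region was present at 60 of the 88 members (68.2%, 95% Clopper-Pearson interval 57.4 to 77.7), beside 76.2% of all protein-coding genes. A thresholded peak was present at 2 members (2.27%, interval 0.276 to 7.97), ceh-38 and hlh-11, beside 3.04% of all genes. Among the 1000 highest pooled regions, down to a signal of 18.7, were those of 4 members (4.55%, interval 1.25 to 11.2), the same genes with ceh-5 and ceh-100, beside 6.6% of all genes. The members' intervals cover counting error only, take genes as independent although some are neighbours, such as hlh-28 and hlh-29, and are no test. All 3 shares among all genes lay inside them. For the share with a region this held with 2000 bp and the gene body in the pooled list, but not in the list of replicate 2 alone, with 53 members (60.2%, interval 49.2 to 70.5) beside 76.9% of all genes, nor with the 5′ end window alone.

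**Figure D1:**
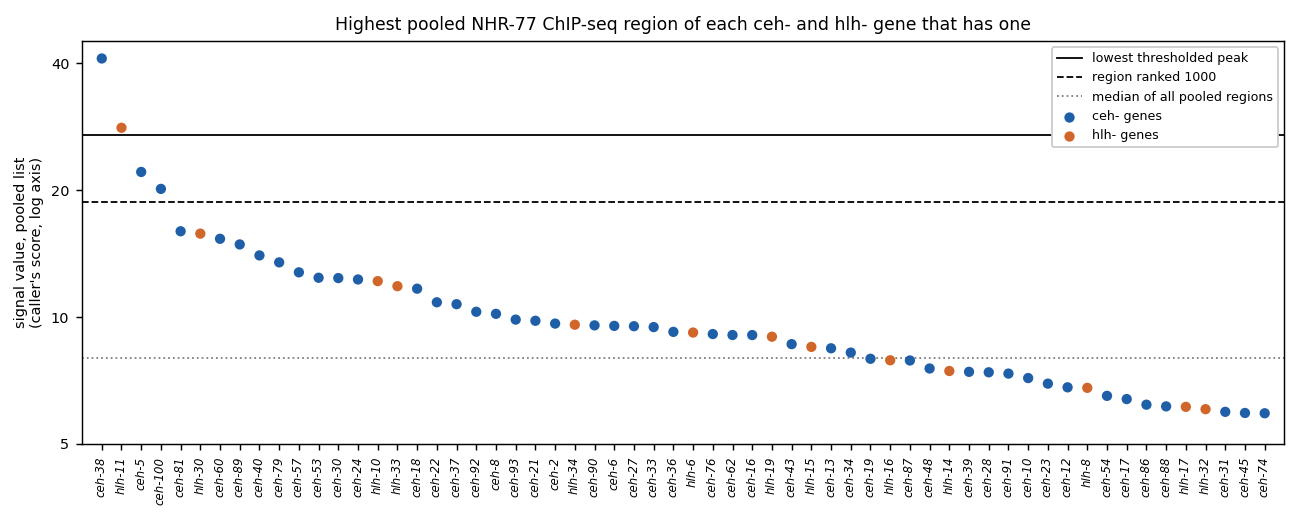
Signal value of the highest pooled region (log axis) for each of the 60 members that have one, in falling order, with blue points for ceh- and orange points for hlh- genes. The solid line is the lowest thresholded peak (27.07), the dashed line the region ranked 1000 (18.7) and the dotted line the median of all pooled regions (7.98); only ceh-38 and hlh-11 lie above the solid line.

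The members' signals spanned 5.91 at ceh-74 to 41.05 at ceh-38. Their median was 9.21 (interval of the median 8.24 to 9.86), beside 9.58 for all protein-coding genes with a region, and their median rank was 10118.5 beside 9010. From rank 1001 to 5000 there were 13 members (14.8% beside 18.04% of all genes), from 5001 to 10000 there were 12 (13.6% beside 16.5%), from 10001 to 20000 there were 19 (21.6% beside 21.8%) and from 20001 to 30000 there were 12 (13.6% beside 13.3%). Thus 43 of the 60 members with a region stood below rank 5000. A single region was found at 31 members and more at 29, up to 17 at the long gene hlh-30. The mean number of regions per gene was 1.52 for members beside 1.74 for all genes. No region was shared by a pair of members.

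**Figure D2:**
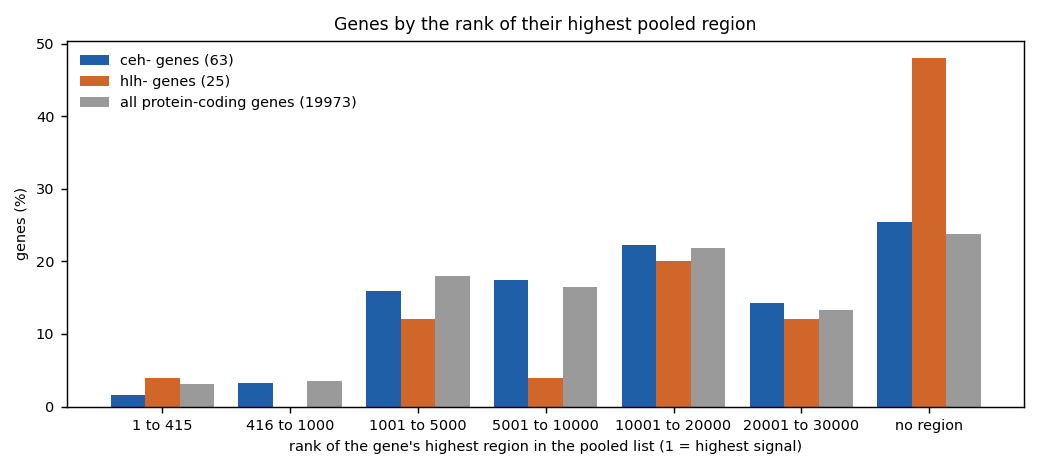
Share of ceh- genes (blue), hlh- genes (orange) and all protein-coding genes (grey), in percent, by the rank of their highest pooled region, with genes that have no region at the right. The bars of hlh- genes stand highest at no region (48%), where ceh- genes have 25.4% and all genes 23.8%.

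Between the families, ceh- genes had a region more often than hlh- genes: 47 of 63 (74.6%, interval 62.1 to 84.7) beside 13 of 25 (52%, interval 31.3 to 72.2). The intervals overlap, and the difference was not tested. The share of all protein-coding genes, 76.2%, lay inside the ceh- interval and above the hlh- interval. The 12 hlh- genes without a region include all 5 of the REF-1 family, whose windows hold repeated sequence, as described below. The families' median signals were close, 9.47 for ceh- and 8.98 for hlh-. Gene length moved with these shares, with medians of 2652 bp for ceh- and 1504 bp for hlh-, and of 2909.5 bp for members with a region beside 1550.5 bp for those without. Its part in the family difference was not tested. With a window of the same length around every gene's 5′ end alone, 53 members had a region (60.2%, interval 49.2 to 70.5), beside 71.4% of all genes.

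The highest member region was at ceh-38 (WBGene00000459), a ONECUT homeobox gene of the CUT class. It lay at chrII:6951389-6951718, with the summit in the 5′ UTR at 28 bp inside the gene and 254 bp from the start of malt-1. Its signal was 41.05 and its rank 162 in the pooled list, 5875 in replicate 1 and 186 in replicate 2. The region was thus high in replicate 2 and moderate in replicate 1, where the summit lay 225 bp away from the pooled one, beside 9 bp in replicate 2.

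The other thresholded peak was at hlh-11 (WBGene00001955), which encodes the worm counterpart of the bHLH factor AP-4. It lay between genes at chrIII:9619290-9619619, with its summit 256 bp before the 5′ end of hlh-11 and no other gene start nearer. Its signal was 28.1, just above the threshold, and it ranked 372 in the pooled list, 3170 in replicate 1 and 558 in replicate 2. Here the replicates placed the summit within 8 bp and 7 bp of the pooled one, though replicate 1 had a higher region elsewhere in the gene at rank 1711.

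Below the threshold, ceh-100 (WBGene00012584) had the most even support of the 4 highest members. Its region at chrII:12603721-12604050 had a signal of 20.1 and ranked 820 in the pooled list, 1811 in replicate 1 and 1379 in replicate 2. The summit lay between genes, 206 bp before the 5′ end of ceh-100 and 500 bp from that of lips-15.

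Next, hlh-30 (WBGene00020930), which encodes the TFEB counterpart that switches on autophagy and lysosome genes, had a region in its own intron 6628 bp from the 5′ end. Its signal was 15.8 at rank 1636, and the region ranked 1914 in replicate 2 and was absent from the list of replicate 1. Other regions of hlh-30 stood higher in each replicate, at rank 1055 in replicate 1 (chrIV:4034861-4035130) and 713 in replicate 2 (chrIV:4024204-4024513). The replicates therefore had their highest signal at different places in this gene. A pooled region of signal 26.4 at rank 440 overlapped the end of hlh-30 but had its summit outside.

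Among the PBC class, partners of Hox proteins, ceh-60 and ceh-40 had a region (66.7% beside 76.2% of all genes) and ceh-20 had none. The ceh-60 region (WBGene00017690, chrX:6522642-6522971) was at a coding exon 7339 bp into the gene, with a signal of 15.3 at rank 1807. It ranked 326 in replicate 1 and 11664 in replicate 2, the reverse of the order at ceh-38. The region of ceh-40 had a signal of 14.003 at rank 2469, ranked 11721 in replicate 2 and was absent from replicate 1.

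The gene ceh-5 (WBGene00000430), a homeobox gene of the ANTP group, had the third region above rank 1000 by signal. It lay at chrI:9726369-9726698, 635 bp before the 5′ end of ceh-5 and in an intron of ocrl-1, with a signal of 22.1 at rank 647. It ranked 18694 in replicate 1 and 620 in replicate 2, so it was high in replicate 2 and low in replicate 1.

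Among the NK and other ANTP-class genes, which pattern pharynx, muscle and neurons, 14 of 19 had a region (73.7% beside 76.2% of all genes). The region of ceh-30, a BarH-type factor, had a signal of 12.4 at rank 3787, with rank 13228 in replicate 2 and none in replicate 1. That of ceh-24 had 12.3 at rank 3895, with rank 5714 in replicate 2 and none in replicate 1. The region assigned to ceh-22, the Nkx2.5-type factor of pharyngeal muscle, lay in a coding exon of twk-12 1950 bp upstream, with a signal of 10.8 at rank 6023, rank 1973 in replicate 2 and none in replicate 1. These 3 regions were thus in the list of replicate 2 alone.

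All 8 genes of the PRD-like class, which includes the OTX-type factors ceh-36 and ceh-37 of sensory neurons, had a region, beside 76.2% of all genes. The signals in this class were 5.92 to 12.4, with a median of 8.20 beside 9.58 for all genes. Only 2 of its regions were in both replicates' lists (25% beside 30.3%). At ceh-53 the replicates were close, with a signal of 12.4 and ranks of 3761 pooled, 8534 in replicate 1 and 7938 in replicate 2, but the summit lay in an intron of C09G12.17, 178 bp from its start and 1929 bp from that of ceh-53. For ceh-37 the signal was 10.7 at rank 6231, with rank 7340 in replicate 1 and no overlapping region in replicate 2. The highest region assigned to ceh-37 in replicate 2 lay elsewhere and ranked 11038. Both POU genes had a region. That of ceh-18, a factor of the gonadal sheath, had a signal of 11.7 at rank 4688 and rank 10143 in replicate 1. No region of replicate 2 overlapped it. Elsewhere, the highest region assigned to ceh-18 ranked 1756 in replicate 1 and 8895 in replicate 2.

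The homeobox genes of the sine oculis class, ceh-32, ceh-33 and ceh-34, had a region at 2 of 3 (66.7%). The CUT class had a region at 4 of 6 (66.7%), both beside 76.2% of all genes. The only Hox gene with a ceh- name, ceh-13, the labial counterpart, had a weak region with a signal of 8.43 at rank 12956.

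The remaining ceh- genes among the 15 of highest pooled signal have no class here. The region of ceh-81 had a signal of 15.98 at rank 1575, rank 1146 in replicate 2 and none in replicate 1, and its summit was 31 bp from the start of btb-9 but 1928 bp from that of ceh-81. The region of ceh-89 had 14.9 at rank 2022, rank 3026 in replicate 2 and none in replicate 1. That of ceh-79 had 13.5 at rank 2828, with ranks of 6092 and 8474 in replicates 1 and 2, and that of ceh-57 had 12.8 at rank 3411, with 14547 and 1263. Of these 4 regions, only those of ceh-79 and ceh-57 were in both lists.

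Apart from hlh-11 and hlh-30, the hlh- genes had moderate or weak regions. At hlh-10 the signal was 12.2 at rank 4021, with rank 16843 in replicate 1 and 10552 in replicate 2. At hlh-33 it was 11.8 at rank 4453, with ranks of 3957 and 14670, and the start of ddp-1 was nearer, at 741 bp. Both regions were in both replicates, and none of these ranks was among the 1000 highest.

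The remaining 6 of the 10 highest hlh- genes had signals of 7.45 to 9.59. The region of hlh-34, of the PAS class, had 9.59 at rank 8992 and rank 9876 in replicate 2. In the Achaete-scute-like class of proneural and gland factors, 3 of 5 genes had one (60% beside 76.2% of all genes). That of hlh-6, which drives pharyngeal gland genes, had 9.19 at rank 10171 and rank 7205 in replicate 2. That of hlh-19 had 8.98 at rank 10878 and rank 9122 in replicate 2. At hlh-14 it had 7.45 at rank 17816 and was in neither replicate. The region of hlh-15 had 8.50 at rank 12715 and was in neither replicate, and that of hlh-16, an Olig-like gene, had 7.90 at rank 15421 and rank 18459 in replicate 2. None of these 6 regions was in the list of replicate 1. The mesodermal factor hlh-8, the Twist counterpart, had 6.79 at rank 21843, in neither replicate.

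The replicates were then compared at the members' pooled regions. Overlapping regions were found in both lists for 13 of 60 (21.7%, interval 12.1 to 34.2), beside 30.3% for all protein-coding genes with a region. In replicate 1 alone there were 13, in replicate 2 alone 27 and in neither 7 (11.7% beside 10.2% for all genes). Of the 15227 protein-coding genes with a region, 1861 had it in replicate 1 alone and 7186 in replicate 2 alone. The list of replicate 1 held 43.3% of the members' regions beside 42.6% for all genes, and that of replicate 2 held 66.7% beside 77.5%. Of the 17 members among the 5000 highest pooled regions 10 were in both lists (58.8% beside 59.6% for all genes), and of the 43 below them 3 were (all genes 16.4%). Support by both replicates was thus mostly at the stronger regions.

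**Figure D3:**
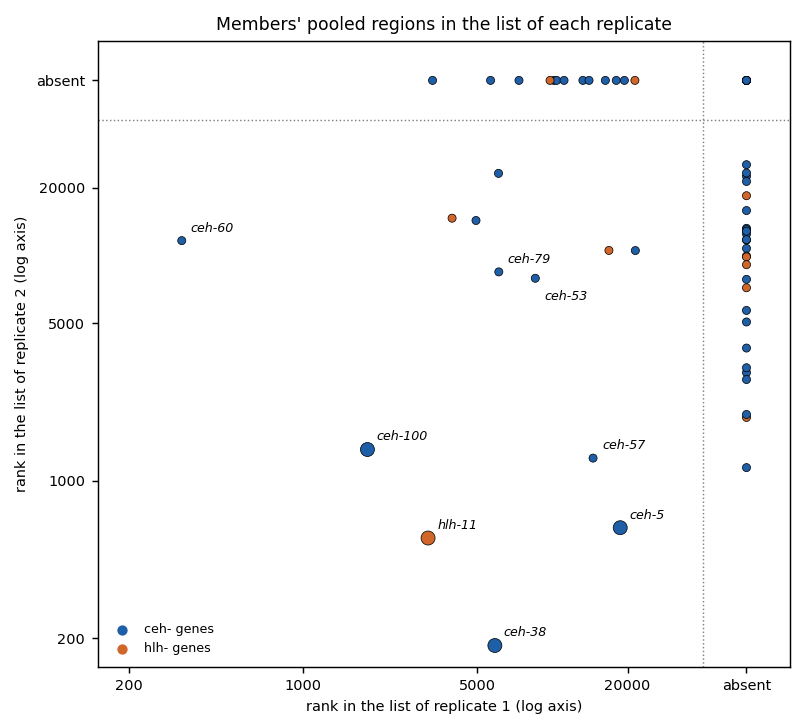
Rank of each member's pooled region in the list of replicate 1 (horizontal, log axis) against replicate 2 (vertical, log axis), 1 being the highest signal, with regions missing from a list drawn at absent and large points for the 4 members among the 1000 highest pooled regions. Most points lie at absent on an axis, with ceh-60 farthest left and ceh-38 lowest.

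Even at the stronger regions the ranks differed widely. Among the 10 members in the 5000 highest regions and in both lists, the 5 widest differences, as log2 of the rank in replicate 1 over that in replicate 2, were −5.16 at ceh-60, 4.98 at ceh-38, 4.91 at ceh-5, 3.53 at ceh-57 and 2.51 at hlh-11. All of these but ceh-60 stood higher in replicate 2. The other 7 of the 17 members were absent from a list and have no ratio. If an absent region is placed at the end of the list, the size of the difference was at least 4.34 at ceh-81, 3.603 at hlh-30 and 2.94 at ceh-89, all absent from replicate 1. With 2 replicates there is no error for a single region, so these are descriptions. Such differences were not counted over all genes, so they say nothing particular to the members. Over regions in both lists, the Spearman correlation of the replicates' ranks was −0.121 for 13 members and 0.356 for 4620 protein-coding genes.

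Each replicate's own highest region per gene was also taken, a description added after the data were seen. In replicate 1, 3 members reached the 1000 highest regions, ceh-60, ceh-32 and ceh-14, beside 6.11% of all genes. In replicate 2, 4 did, ceh-38, hlh-11, ceh-5 and hlh-30, beside 6.54%. No member was in both sets (0 of 88, which allows a share of up to 3.41% by the limit of 3 counts and 4.11% by the exact interval), while 558 of all genes were (2.79%).

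Position was described next. The summit was within 500 bp of the gene's own 5′ end for 17 of 60 members (28.3%), as for 28.3% of all genes with a region, and the median distance was 1147 bp beside 1086 bp. The member's own 5′ end was the nearest start for 46 of 60 (76.7%), beside 66.1% for all genes. The remaining 14 had another gene's start nearer, of which 7 had their summit inside the member itself, such as those of ceh-60 and ceh-18. At ceh-21, for example, the summit was 2 bp from the start of T26C11.9 and 1115 bp from that of ceh-21.

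**Figure D4:**
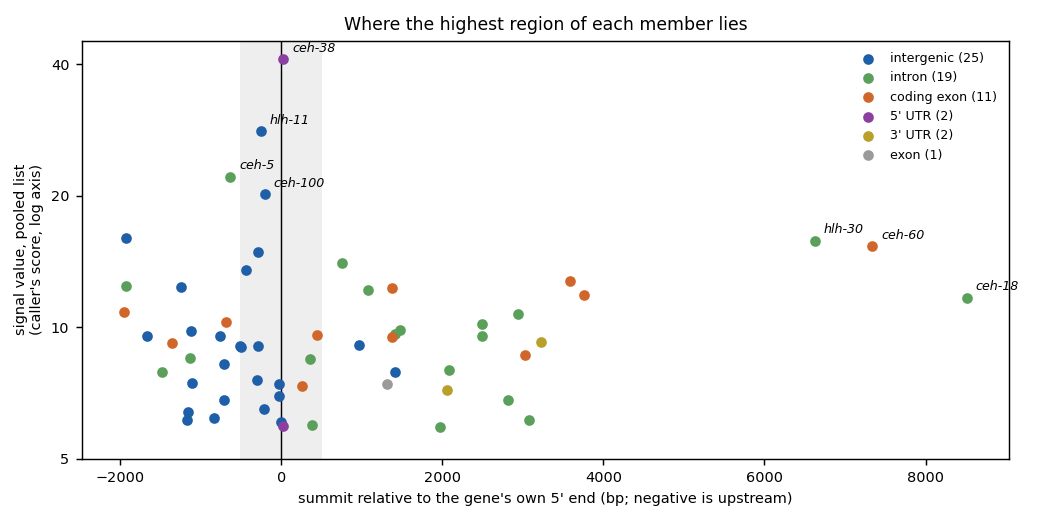
Distance from the member's own 5′ end to the summit of its highest pooled region (horizontal, bp, negative upstream) against signal value (log axis), coloured by annotation class, with the 500 bp zone shaded. The thresholded peaks of ceh-38 and hlh-11 lie in the shaded zone, and the regions of hlh-30, ceh-60 and ceh-18, which are below the threshold, lie over 5000 bp into the gene.

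By annotation the 60 summits were intergenic in 25 cases (41.7%, beside 38.2% of the 11538 distinct highest regions of all genes), in introns in 19 (31.7% beside 31.4%) and in coding exons in 11 (18.3% beside 21.7%). A further 2 lay in a 5′ UTR, 2 in a 3′ UTR and 1 in another exon. Inside the member itself lay 27, upstream of it 30, and 8 of the summits outside it lay inside a different gene. A non-coding gene lay within 500 bp of 7 of these summits. These genes include 2 piRNA genes, 64 bp from the summit at ceh-48 and 69 bp from that at hlh-17, and no tRNA, snRNA, snoRNA, miRNA or rRNA gene. The counts inside, upstream, in a different gene and near a non-coding gene were not made over all genes. They therefore say nothing particular to the members.

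Members were on all 6 nuclear chromosomes, with the lowest share with a region on II, where 9 of 20 had one, beside 73.1% of all genes there. On X 17 of 24 had one (70.8% beside 79.6%), with none of the 24 among the 1000 highest, beside 6.52% of all genes on X. A region was present at 8 of 10 members on I (80% beside 80.4%), 9 of 11 on III (81.8% beside 83.3%), 7 of 9 on IV (77.8% beside 75.1%) and 10 of 14 on V (71.4% beside 71.2%).

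Sequence motifs were counted in 200 bp on each summit, on both strands, with no test. An E-box, CANNTG, was in 31 of 60 members' windows (51.7%) and 53.8% of the windows of all genes, and its special form CACGTG, a subset of CANNTG, in 2 (3.33% beside 3.41%). The homeodomain site TAATTA was in 5 (8.33% beside 10.2%). The nuclear receptor half-site AGGTCA, which reads TGACCT on the opposite strand, was in 3 (5% beside 4.97%). The windows' GC content was 34.8% ± 7.07 (SD, n = 60) beside 35.2% ± 7.13 over 11538.

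The 3 half-sites were at hlh-19, ceh-34 and ceh-31, all with weak regions below rank 10000 in the pooled list. They are shown with the half-site in capitals, on the strand of the gene named, in build WBcel235 (ce11), at chrX:557796-557855 (minus strand), chrV:5320291-5320350 (minus strand) and chrX:3069926-3069985 (minus strand).
hlh-19: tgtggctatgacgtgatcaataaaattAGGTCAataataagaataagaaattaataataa
ceh-34: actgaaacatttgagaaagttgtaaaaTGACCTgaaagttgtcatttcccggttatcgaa
ceh-31: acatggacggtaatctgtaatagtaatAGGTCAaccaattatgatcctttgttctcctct
The half-sites lay 32, 36 and 78 bp from the summits. The regions of hlh-19 and ceh-34 were in the list of replicate 2 alone and that of ceh-31 in replicate 1 alone. Neither thresholded peak of a member held a half-site in its window.

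No pooled region was found for 28 members (31.8%, beside 23.8% of all genes): 16 ceh- genes (ceh-1, ceh-7, ceh-9, ceh-14, ceh-20, ceh-32, ceh-41, ceh-49, ceh-51, ceh-58, ceh-63, ceh-75, ceh-82, ceh-83, ceh-84 and ceh-99) and 12 hlh- genes (hlh-1, hlh-2, hlh-3, hlh-4, hlh-12, hlh-13, hlh-25, hlh-26, hlh-27, hlh-28, hlh-29 and hlh-31). They include hlh-1, the MyoD counterpart of body wall muscle, and hlh-2, the E protein that pairs with many other bHLH factors. Of the 28, 12 had a region in the list of replicate 1 and 3 in that of replicate 2, none in both. The other 13 (46.4%, beside 37.8% of all genes with no pooled region) had none in any list. A missing entry says only that the list held no region there, at an unknown depth. The pooled list and that of replicate 2 each held 30000 regions, and whether their length was fixed was not tested.

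Of these genes, ceh-32, a sine oculis-class factor of the head, and ceh-14, a LIM homeobox gene of neurons, had strong regions in replicate 1 that the pooled list lacks. At ceh-32 the region (chrV:11704415-11704684, in its own intron) ranked 535 there, and at ceh-14 (chrX:7529534-7529803, in an intron) 639. Neither gene had a region in replicate 2.

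All 5 members of the REF-1 family, hlh-25 to hlh-29, which act in Notch signalling in the embryo, had no pooled region, as had 23.8% of all genes. Near-identical copies were measured as the share of 31-base words in the gene's window that occur once in the genome, a description added after the data were seen. That share was 36.99% at hlh-28, 34.5% at hlh-29, 74.0% at hlh-25, 83.0% at hlh-26 and 74.2% at hlh-27, beside a median of 99.7% over members with a region. The median over members without a region was 99.4%, and over all genes it was 99.2% with a region and 96.3% without. It was under 90% at 8 of the 28 members without a region and 16 of all 88, a count not made over all genes. Among members with a region it was lowest at ceh-53 (58.9%), and it was 79.4% at ceh-5. The part of repeated sequence in the missing regions was not tested. The values of the REF-1 genes, ceh-53, ceh-5 and the other members under 90% are uncertain for that reason. These others include ceh-84 (54.9%) and ceh-99 (71.8%), which had no pooled region.

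Some members had a strong peak beyond the 2000 bp limit. At 5000 bp, 6 members had a thresholded peak (6.82%, beside 5.24% of all genes). The added peaks were at hlh-33 (rank 108, 4328 bp from its start but 168 bp from that of ddp-1, overlapping the end of hlh-33 with its summit outside), hlh-29 (rank 123, 4034 bp), hlh-27 (rank 145, 3330 bp, with ins-13 nearer at 1321 bp) and ceh-5 (rank 273, 4739 bp, with eat-16 nearer at 286 bp). Of these, only the peak near hlh-29 had that gene's start as its nearest.

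Homeobox and bHLH genes with other names were set beside the members. Of 37 such homeobox genes, 30 had a pooled region (81.1% beside 76.2% of all protein-coding genes) and none a thresholded peak (all genes 3.04%). The highest were dsc-1 (signal 17.3, rank 1238, with ranks of 273 and 8660 in replicates 1 and 2), cog-1 (17.2, rank 1278, with 2752 and 3654) and unc-62 (15.2, rank 1873, absent from replicate 1 and 830 in replicate 2). Of 15 such bHLH genes, 12 had a region (80%) and 1 a thresholded peak (6.67%). That was hif-1, the hypoxia factor, with a signal of 40.8 at rank 167 and ranks of 172 and 187 in replicates 1 and 2. It was followed by mdl-1, of the MAD type, with 26.6 at rank 434 (630 and 489) and mml-1, of the Mondo type, with 17.04 at rank 1310 (4752 and 928). The region at hif-1 stood at about the pooled signal of that at ceh-38, but with like ranks in both replicates, and its summit was 1847 bp before the 5′ end.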

How the data were processed

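ChIP-seq against eGFP-tagged NHR-77 in whole L2 larvae gave 2 biological replicates of 1 group. Per the submitters' labels, files are on builds ce11 and ce10. The deposited lists in narrowPeak format are 1 relaxed list per replicate, 1 of both replicates pooled, and the authors' thresholded list. The deposited signal value (column 7) is a score from the authors' caller, taken as such from its values. Not given in the sources used here: its scale, the aligner and the caller. Read depth is unknown. The ce10 lists were not used, because the annotation is of WBcel235 (ce11) and no coordinates were converted. Other columns of per-sample values left out numbered 0.

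Genes came from Ensembl release 115 and sequence from the RefSeq copy of WBcel235. Each gene got the pooled region of highest score with its summit within 2000 bp of the 5′ end or inside the gene, and a region could go to several genes. A replicate held a region where its own list had an overlapping one, and ranks there count mitochondrial regions. A pooled region absent from a replicate, or with none there, had no overlapping one, though the gene could hold other regions in that list. Intervals are 95% Clopper-Pearson. No test was run over the members: counts and medians stand beside those of all protein-coding genes. The placing of regions was tested on simulated data. Python 3.11.15, pandas 2.3.3, NumPy 2.4.6, SciPy 1.17.1 and matplotlib 3.10.9 were used.

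Values are given for members with a thresholded peak, the 15 ceh- and 10 hlh- members of highest pooled signal, the 5 whose ranks differed most among those in both replicates' lists and the 5000 highest pooled regions, and up to 3 genes of each comparison list; members with no region are named. Other members were named after their values were seen. The members, lists and classes, the latter from background knowledge, were chosen with earlier results of these data known. Alternatives were other distances, windows, 5′ ends, assignments, merged entries, a stricter threshold and each replicate's list alone.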

Additional observations from a re-analysis of the deposited data

How the results depend on the processing

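A distance of 5000 bp instead of 2000 bp raised the members with a thresholded peak from 2 to 6, those among the 1000 highest regions from 4 to 9 (10.2% beside 11.05% of all genes) and the median signal from 9.21 to 10.7 (all genes 10.7). Among the upper 207 of the thresholded peaks, 1 member had one (1.14% beside 1.52%). In the list of either replicate alone, 1 member was in the 415 highest regions (range 1 to 1), ceh-60 in replicate 1 (all genes 2.93%) and ceh-38 in replicate 2 (all genes 2.95%), and hlh-11 in neither. Members whose region was in both replicates numbered 7 when summits had to be within 100 bp, and 2 when both had to be among the 5000 highest, in place of 13. The share near the 5′ end was 11.7% at 250 bp (all genes 15.9%) and 43.3% at 1000 bp (all genes 46.8%). In windows of 100 bp, CANNTG was in 17 (28.3% beside 32.02%), CACGTG in 1 (1.67% beside 1.80%) and TAATTA in 2 (3.33% beside 5.11%). These follow from wider or narrower limits; for the replicate lists the cause was not tested. The other 35 main values under alternatives stayed within 1.5 times or within the median's interval. At that limit, any overlap in place of the summit gave 6 members among the 1000 highest (6.82% beside 6.95%) and 3 with a thresholded peak (3.41% beside 3.23%). At 500 bp, 3 members were among the 1000 highest (3.41% beside 4.22%) and 2 had a thresholded peak (2.27% beside 1.89%). Whether members stood below all genes thus depended on the setting. The median signal was not computed from the replicates' lists, whose scores may be on different scales. No paired analysis was possible because there is 1 group. Unknown depth limits every missing region.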

Other observations

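Other transcription factor families, chosen after the values were seen, are given beside all protein-coding genes, of which 76.2% had a pooled region, 3.04% a thresholded peak and 6.6% one of the 1000 highest regions. Of 269 nhr- genes, the receptors to which NHR-77 belongs, 207 had a pooled region (76.95%), 4 a thresholded peak (1.49%) and 14 one of the 1000 highest regions (5.20%). Among the forkhead genes named fkh-, 8 of 9 had a region (88.9%), among T-box genes named tbx- 14 of 19 (73.7%), among GATA-type genes named elt- 6 of 6 and among sox- genes 3 of 3, in each case with none of the 1000 highest. Of the 7 ets- genes 6 had a region (85.7%) and 1 was among the 1000 highest. Median signals were 9.65 for nhr-, 9.89 for fkh-, 7.90 for tbx-, 11.6 for ets-, 10.04 for elt- and 8.19 for sox- genes. None of these differences was tested.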
